A study of Mus musculus with 9 samples.

Results

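Egr1, Egr2 and Egr3 encode the early growth response factors, zinc finger transcription factors whose CpG methylation is described here in plasma cells, plasmablasts and naive B cells. Their CpGs were those that the deposited CpG table assigns to 1 of the 3 gene symbols by the nearest transcription start, with at least 10 reads, methylated and unmethylated together, in each of 9 libraries. Of 356320 CpGs that met this minimum in the whole table, 135 belonged to these genes: 21 to Egr1, 51 to Egr2 and 63 to Egr3. A further 254 deposited CpGs of the 3 genes missed the minimum in at least 1 library, 64 at Egr1, 89 at Egr2 and 101 at Egr3. The genes were chosen with earlier results of these data known, so their levels and calls are given as a description and no p-value is offered in their support.

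The source was the spleen of female C57Bl/6J mice, 10 weeks old, and each group had 3 libraries. Plasma cells (B220low CD138+) and plasmablasts (B220mid CD138+), the antibody-secreting cells and their dividing precursors, were sorted on day 3 after LPS, a lipopolysaccharide of bacterial walls that activates B cells. Naive B cells (B220+ CD43-) were sorted from untreated control mice. DNA was cut with MspI, whose recognition site holds a CpG, treated with bisulfite and sequenced in single-end reads of 50 bp, so that coverage is concentrated in CpG-rich parts of the genome. Whether each library stands for 1 animal or for pooled animals is not stated in the labels, so the spread between libraries may be technical.

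Early growth response genes are immediate early genes: they are transcribed within minutes of a stimulus, without new protein synthesis, through serum response factor and its ternary complex partners acting at their promoters. In B cells, ligation of the antigen receptor induces Egr1 through the ERK kinases. Egr2 and Egr3 are closely related in their DNA-binding domain, and in mouse lymphocytes they restrain activation and protect against autoimmunity. NAB1 and NAB2 are cofactors that bind EGR proteins and usually repress their targets.

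The promoter of Egr2 shows where in an early growth response gene the unmethylated CpGs lay. The 250 bases before the deposited start of Egr2 are shown because they hold 7 measured CpGs, in capitals, among 17 CpGs in all. They are RefSeq sequence of GRCm38.p6, chr10:67537619-67537868, plus strand. The spacing of the measured CpGs, which the deposited table places on mm9 from -179 to -129 bp, fitted the CG pairs of the RefSeq windows of Egr2 in 1 alignment.
Egr2 promoter: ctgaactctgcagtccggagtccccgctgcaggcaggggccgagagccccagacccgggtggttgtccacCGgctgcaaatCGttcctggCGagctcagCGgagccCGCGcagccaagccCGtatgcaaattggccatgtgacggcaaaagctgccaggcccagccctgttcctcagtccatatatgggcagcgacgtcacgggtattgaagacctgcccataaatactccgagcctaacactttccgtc
Over these 7 CpGs the mean level was 0.595%, 0.621% and 0.571% in plasma cells 1 to 3, 3.06%, 6.90% and 4.76% in the plasmablast libraries in the same order, and 0.714%, 2.33% and 0.985% in naive B cells 1 to 3. All 3 groups were nearly unmethylated there, and the pooled level of no CpG exceeded 2.78% in plasma cells, 7.27% in plasmablasts or 5.38% in naive B cells. Between these CpGs and the start, the window held 1 CArG box, the site of serum response factor, and 2 matches to TGACG, the core of the cyclic AMP response element, both read on either strand and none overlapping a measured CpG or the other motif. A CArG box was present in 1.47% and TGACG in 17.7% of 32817 RefSeq promoter windows of the same length. The early growth response site GCGTGGGCG, found in 0.536% of those windows, had no match in these letters.

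The 3 genes had nearly no methylation at the start in every group, and mostly, though not everywhere, high methylation far from it. Promoter CpGs, defined by the authors as 2500 bp upstream to 500 bp downstream of a start, numbered 52 and averaged 1.66% ± 0.307 in plasma cells, 5.44% ± 2.72 in plasmablasts and 2.63% ± 1.18 in naive B cells (SD, n = 3 libraries). The 38 intergenic CpGs averaged 63.2% ± 3.54 in plasma cells, 69.9% ± 1.96 in plasmablasts and 79.4% ± 2.06 in naive B cells. All 32 intronic CpGs were assigned to Egr3, although they lie in introns of the neighbouring gene Pebp4, and averaged 50.8% ± 4.17, 57.7% ± 0.515 and 73.1% ± 2.67 in plasma cells, plasmablasts and naive B cells. The 13 exonic CpGs were the only class with a higher mean in both induced groups. It was 21.7% ± 3.07 in plasma cells, 25.2% ± 0.101 in plasmablasts and 11.6% ± 2.18 in naive B cells. By gene, only the exon CpGs of Egr3 were higher in both. Those of Egr1 averaged 0.327%, 2.10% and 2.38% in plasma cells, plasmablasts and naive B cells, and those of Egr2 11.4%, 14.1% and 13.1%.

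**Figure D1:**
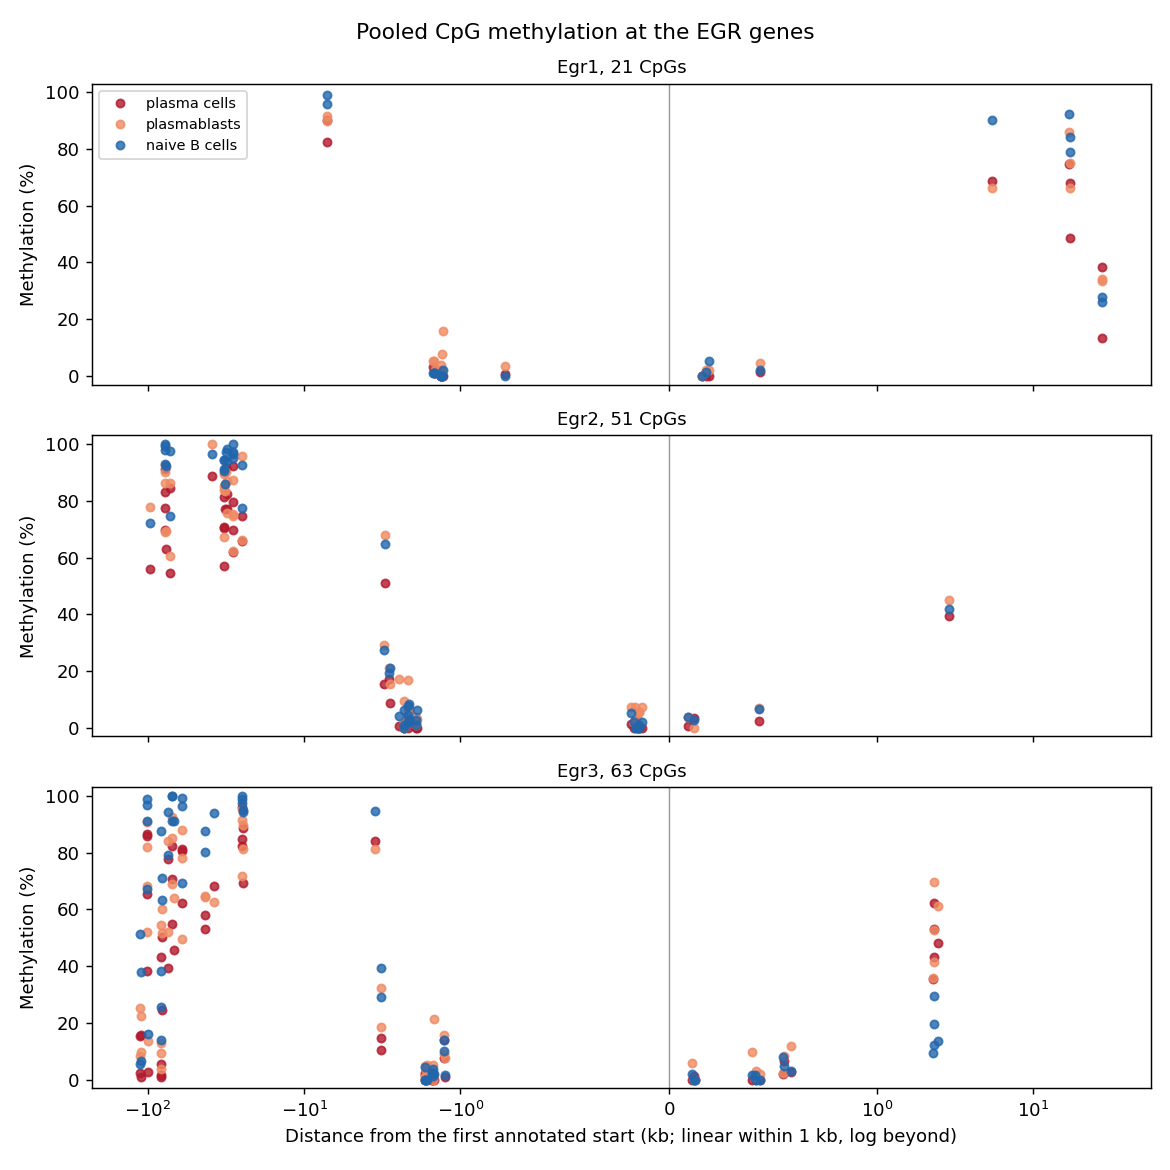
Methylation of each measured CpG, as the percent of methylated reads pooled over 3 libraries, against the distance from the first annotated start of Egr1, Egr2 and Egr3 (linear within 1 kb, logarithmic beyond). Points near the starts lie close to 0 in plasma cells, plasmablasts and naive B cells, distant points are mostly lower in plasma cells and plasmablasts than in naive B cells, and the Egr3 CpGs 2280 to 2466 bp past the start lie higher in plasma cells and plasmablasts.

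Each CpG was sorted by a quasi-binomial model of its reads fitted over all CpGs, and called lower or higher when the adjusted p was under 0.01 and the pooled levels differed by 20 percentage points or more. In plasma cells against naive B cells, 28 of the 135 CpGs were lower and 5 were higher, where 22.6% of all tested CpGs were lower and 0.0449% higher. In plasmablasts against naive B cells, 17 were lower and 5 higher, where 10.5% of all CpGs were lower and 0.0645% higher. Between plasma cells and plasmablasts, 1 was lower and none higher, where 0.595% of all CpGs were lower and 0.000842% higher. These comparisons share their libraries and are not independent of each other. The plasmablast count of lower CpGs was 11 without naive B cells 1, 10 without naive B cells 2 and 9 without plasmablast 1, and with each CpG's own dispersion in place of the moderated one 0 CpGs of any gene were called.

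The calls followed position. No promoter CpG of the 3 genes was called in either comparison with naive B cells, where 7.85% of all promoter CpGs were lower in plasma cells and 3.19% in plasmablasts. Their starting level left no room for a lower call. The highest pooled level among the 52 was 14.1% in naive B cells, less than the fall that a call requires. The absence of lower calls at these promoters therefore says nothing about a loss there. In naive B cells 50 of the 52 were under 10%. Of 38757 promoter CpGs of all genes in that range, 4 were called higher in plasma cells and 9 higher in plasmablasts. Of 32 intronic CpGs, 17 were lower in plasma cells and 11 in plasmablasts, where 25.5% and 12.1% of all intronic CpGs were lower. Of 38 intergenic CpGs, 11 were lower in plasma cells and 6 in plasmablasts, where the shares of all intergenic CpGs were 31.8% and 15%. All 5 CpGs called higher in plasma cells were the 5 measured exon CpGs of Egr3, and the same 5 were called higher in plasmablasts, where 0.0631% and 0.0876% of all exon CpGs were higher. By gene, plasma cells had 2 lower CpGs at Egr1, 8 at Egr2 and 18 at Egr3, and plasmablasts had 1, 5 and 11.

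**Figure D2:**
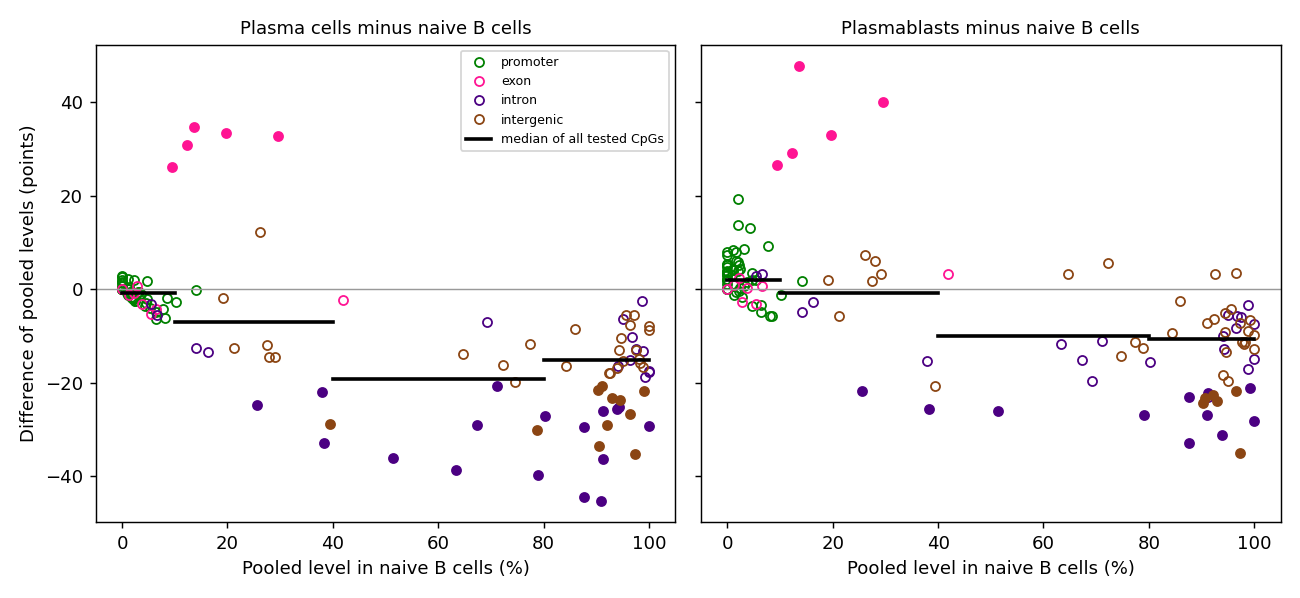
Difference of pooled levels in percentage points against the pooled level in naive B cells, for plasma cells minus naive B cells (left) and plasmablasts minus naive B cells (right), 1 point per CpG of Egr1, Egr2 and Egr3, coloured by class, filled where called. Black bars give the median of all tested CpGs in 4 ranges of naive level; the 5 filled exon points lie between 26.1 and 34.7 points in plasma cells and between 26.5 and 47.7 points in plasmablasts, above every other point.

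The gain lay inside Egr3. The 5 measured exon CpGs span 187 bp of chromosome 14 (mm9, 70479532 to 70479718), 2280 to 2466 bp past the first annotated start of Egr3 at 70477252, on the plus strand. The deposited table measures their distance from a second Egr3 transcript that begins 1294 bp further on, which places them 985 to 1171 bp past a start. The last of the 5 also carries the 3′ UTR annotation of Egr3, and none of them overlaps another gene. Pooling the reads of all 5, the level was 45.0%, 43.2% and 52.2% in plasma cells 1 to 3, 53.2%, 51.0% and 54.6% in plasmablasts, and 15.2%, 24.4% and 12.5% in naive B cells 1 to 3. Every plasma cell and plasmablast library was above every naive B library, while plasma cell 3 lay within the range of the plasmablasts. The difference from naive B cells was 29.4 points in plasma cells and 35.5 points in plasmablasts, against SDs of 4.77 in plasma cells, 1.82 in plasmablasts and 6.25 in naive B cells (n = 3 each).

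The 5 CpGs did not all move by the same amount. At 70479718, the largest difference in plasmablasts, the level was 51.2%, 43.1% and 52.0% in plasma cells, 62.2%, 63.8% and 57.5% in plasmablasts, and 9.20%, 38.9% and 8.33% in naive B cells. Naive B cells 2 stood well above the other naive libraries there, on 18 reads, but below every plasma cell and plasmablast library. At 70479576 the level was 65.4%, 56.0% and 63.8% in plasma cells, 69.2%, 71.1% and 68.0% in plasmablasts, and 31.9%, 17.6% and 35.3% in naive B cells, so the groups with LPS again lay apart from naive B cells. At 70479566 it was 50.0%, 44.0% and 58.6% in plasma cells, 50.0%, 47.4% and 64.0% in plasmablasts, and 21.3%, 17.6% and 17.6% in naive B cells.

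The remaining 2 CpGs had the smallest differences. At 70479578 the level was 30.8%, 32.0% and 53.4% in plasma cells, 42.3%, 39.5% and 44.0% in plasmablasts, and 14.9%, 17.6% and 0% in naive B cells. At 70479532 it was 26.7%, 41.7% and 36.2% in plasma cells, 40.0%, 30.8% and 38.5% in plasmablasts, and 6.56%, 29.4% and 0% in naive B cells. Here the groups overlapped, since naive B cells 2, with 17 reads, exceeded plasma cell 1. Depth limits the naive values. Read counts summed over the 5 CpGs came to 86 and 80 in naive B cells 2 and 3, with 12 to 18 at each CpG. The sum was 289 in naive B cells 1 and 141 to 293 in the plasma cell and plasmablast libraries. A read that covers several of these CpGs counts at each, so fewer separate reads stand behind the sums. At 70479566, 70479576 and 70479578 each library had the same number of reads. Without naive B cells 1, 3 of the 5 were called higher in plasma cells and 3 in plasmablasts, and without plasma cell 3, 3 were called in plasma cells. All 5 differences kept their sign with any 1 library left out, at 19.0 points or more in plasma cells and 21.3 points or more in plasmablasts.

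**Figure D3:**
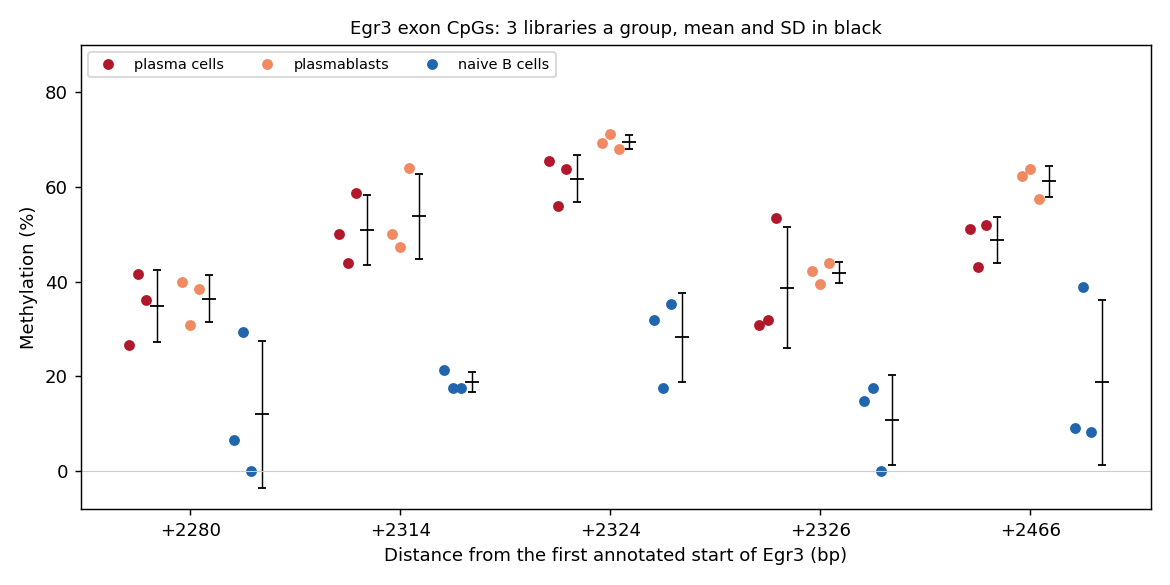
Methylation of the 5 measured Egr3 exon CpGs by library, in percent, ordered by distance from the first annotated start in bp, with plasma cells, plasmablasts and naive B cells side by side; points are libraries and black marks the mean and SD of 3. The plasma cell and plasmablast libraries lie above the naive B libraries at 4 of the 5 CpGs, and naive B cells 2 exceeds plasma cell 1 at +2280.

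CpGs of the same exon that missed the read minimum also stood higher. The table holds 22 exon CpGs of Egr3, from 1803 to 2632 bp past the first start, and 17 of them were below the minimum. All 17 had a higher pooled level in plasma cells than in naive B cells and 16 of 17 in plasmablasts than in naive B cells. At 9 of the 17, however, naive B cells 2 and 3 together had 0 or 1 read, and so did plasmablast 2, so that the naive level there is that of naive B cells 1. Over the other 8, pooled reads gave 34.3%, 37.1% and 27.6% in plasma cells, 28.7%, 27.8% and 29.8% in plasmablasts, and 11.8%, 16.0% and 14.0% in naive B cells. All 8 were higher in both groups than in naive B cells, and no library of either overlapped the naive libraries. Neighbouring CpGs can share a 50 bp read, so those more than 50 bp from all 5 measured ones were also taken alone, 8 in all, of which 4 had reads beyond 1 in naive B cells 2 and 3 together. Those 4 gave 31.3%, 30.4% and 21.0% in plasma cells, 14.9%, 19.7% and 27.3% in plasmablasts, and 11.1%, 22.9% and 15.0% in naive B cells. Naive B cells 2 exceeded plasma cell 3, so all groups overlapped there. These values rest on few reads: naive B cells 3 had 5 at each of the 4. Its sum of 20 can count a shared read more than once.

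**Figure D4:**
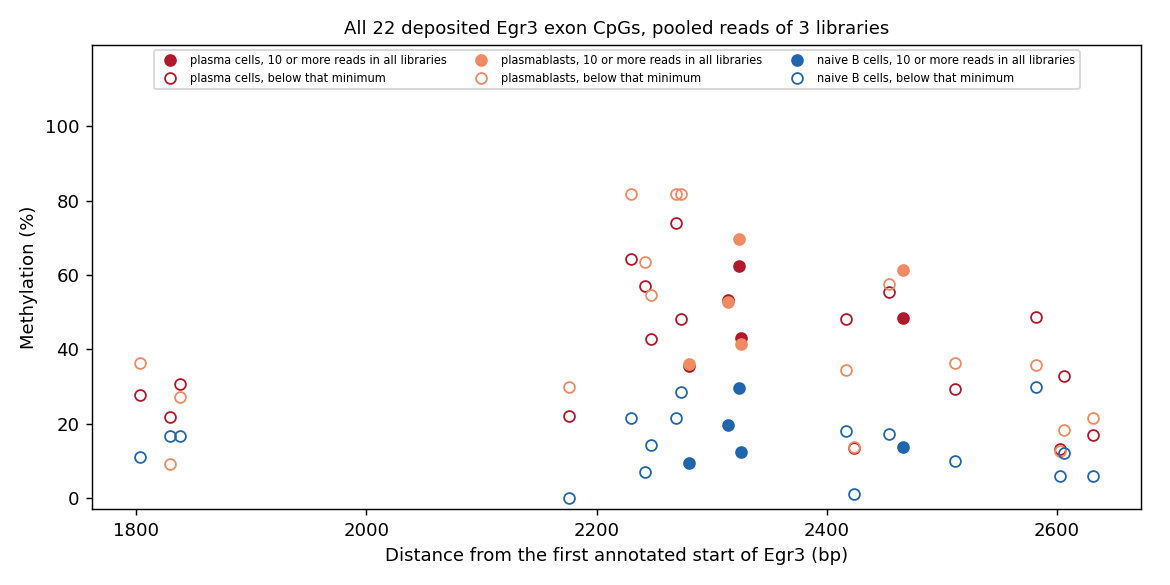
Pooled methylation in percent of all 22 deposited Egr3 exon CpGs against the distance from the first annotated start in bp, in plasma cells, plasmablasts and naive B cells. Filled points had at least 10 reads in all libraries and open points did not; naive B cells lie lowest at 21 of the 22 CpGs, the exception being 1 CpG where plasmablasts are 7.58 points lower.

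Such a cluster was rare in the table, though it helped to single out the gene. CpGs called higher in plasma cells numbered 160 in 101 genes, and those called higher in plasmablasts 230 in 166 genes. Egr3 had 5 in each, and no other gene had 5 or more in either comparison. The 5 are not independent observations, since neighbouring CpGs can share a 50 bp read. Read counts at 70479566, 70479576 and 70479578 were equal in every library. Over both comparisons 71 CpGs in 49 genes were called higher, and Egr3 again had most. Among exon CpGs of all genes with a naive level of 10% to 40%, 28 of 3960 were called higher in plasma cells, of which Egr3 gave 4, and the median difference over those 3960 was -6.18 points. In the authors' deposited lists of differential CpGs, 3 of the 5 measured Egr3 exon CpGs are listed for plasma cells and 2 for plasmablasts.

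The distal exon parts of the other 2 genes had a different starting level. Over 10 deposited exon CpGs of Egr2 more than 2000 bp past its start, whatever their depth, pooled reads gave 72.6%, 65.9% and 76.1% in plasma cells, 75.0%, 67.6% and 72.5% in plasmablasts, and 76.9%, 71.6% and 70.1% in naive B cells, with all groups overlapping. Over 4 exon CpGs of Egr1 more than 1500 bp past its start, they gave 76.5%, 79.4% and 77.8% in plasma cells, 78.4%, 89.8% and 62.5% in plasmablasts, and 81.8%, 98.2% and 90.3% in naive B cells. Plasma cells lay below naive B cells there and plasmablasts overlapped both, on few reads. Counts summed over the 4 CpGs ran from 22 in naive B cells 1 to 62 in naive B cells 3. The gap between 79.4% in plasma cell 2 and 81.8% in naive B cells 1 is small at that depth. By the same pooling, all 22 exon CpGs of Egr3 had 39.6% ± 3.12 in plasma cells, 40.9% ± 3.07 in plasmablasts and 15.5% ± 3.76 in naive B cells (SD, n = 3), a lower naive level than either of those sets.

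The CpGs called lower at Egr3 were all upstream of the gene. Hardly any measured CpG at the gene itself could be called lower. The 23 promoter CpGs had at most 14.1% in naive B cells, less than the fall that a call requires. The 5 exon CpGs had a median of 13.7% and a highest level of 29.6% there. The position of the calls therefore says little about a loss at the gene itself. The 32 intronic CpGs lie between 111977 and 24646 bp before the Egr3 start, within Pebp4, which encodes a phosphatidylethanolamine-binding protein. They form 12 stretches separated by more than 300 bp, and the pooled mean was lower in both plasma cells and plasmablasts than in naive B cells in all 12. The CpG with the largest fall, at 70409307 and 67944 bp upstream, had 47.2%, 46.8% and 43.5% in plasma cells, 56.7%, 76.0% and 61.3% in plasmablasts, and 89.8%, 90.9% and 94.4% in naive B cells. Its 3 groups did not overlap, and plasma cells were 45.3 points below naive B cells and plasmablasts 27.0 points below. At 70395014 the level was 65.0%, 29.2% and 40.0% in plasma cells, 61.5%, 42.4% and 63.0% in plasmablasts, and 85.7%, 100% and 76.5% in naive B cells, with plasma cells and plasmablasts overlapping and both below naive B cells. At 70403074 it was 34.9%, 32.4% and 48.0% in plasma cells, 60.5%, 46.3% and 50.0% in plasmablasts, and 76.9%, 79.5% and 81.8% in naive B cells. Plasma cell 3 fell within the plasmablast range, and both groups lay below naive B cells.

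A further 3 CpGs complete the 6 largest falls in these introns. At 70406755, 70496 bp upstream, the level was 52.2%, 60.0% and 54.2% in plasma cells, 67.9%, 65.6% and 74.1% in plasmablasts, and 95.5%, 89.4% and 91.3% in naive B cells, without overlap between groups. At 70395560, 81691 bp upstream, it was 37.0%, 18.6% and 18.9% in plasma cells, 62.5%, 54.8% and 36.7% in plasmablasts, and 50.0%, 77.8% and 64.0% in naive B cells. Plasmablasts overlapped both other groups there and were not called. At 70365274, the farthest upstream, it was 27.3%, 5.56% and 4.76% in plasma cells, 12.5%, 34.4% and 31.6% in plasmablasts, and 55.6%, 56.5% and 44.2% in naive B cells, with plasma cells and plasmablasts overlapping and both below naive B cells.

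Not every upstream stretch began high. A stretch of 4 CpGs 82432 to 82237 bp upstream averaged 9.78% ± 2.52 in plasma cells, 17.7% ± 2.87 in plasmablasts and 40.4% ± 10.5 in naive B cells, with no overlap between plasma cells, plasmablasts and naive B cells. The stretch farthest upstream, at 111977 to 111475 bp, averaged 7.44% ± 2.06, 13.6% ± 7.24 and 21.0% ± 3.30 in plasma cells, plasmablasts and naive B cells, and there plasmablast 2 overlapped the naive libraries. A lone CpG 99337 bp upstream averaged 2.68% ± 1.46 in plasma cells, 14.1% ± 9.32 in plasmablasts and 21.4% ± 25.8 in naive B cells, whose libraries spanned both other groups. The nearest of the 12, at 24853 to 24646 bp, changed least among those above 80% in naive B cells, with 83.4% ± 5.28 in plasma cells, 85.7% ± 4.69 in plasmablasts and 97.2% ± 2.06 in naive B cells. Of 47 further CpGs of these introns below the read minimum, 44 were lower in plasma cells than in naive B cells and 38 were lower in plasmablasts. Intronic CpGs at 40% to 80% in naive B cells were called lower in plasma cells at 5 of 6 sites here and at 41.0% of 10212 sites in all genes. At 80% or more, the range of most sites here, it was 9 of 19 and 33.4% of 79622. At 10% to 40% it was 3 of 5 and 6.39% of 8081. The 2 sites under 10% could not be called lower, since a call requires a larger fall than their level allows.

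**Figure D5:**
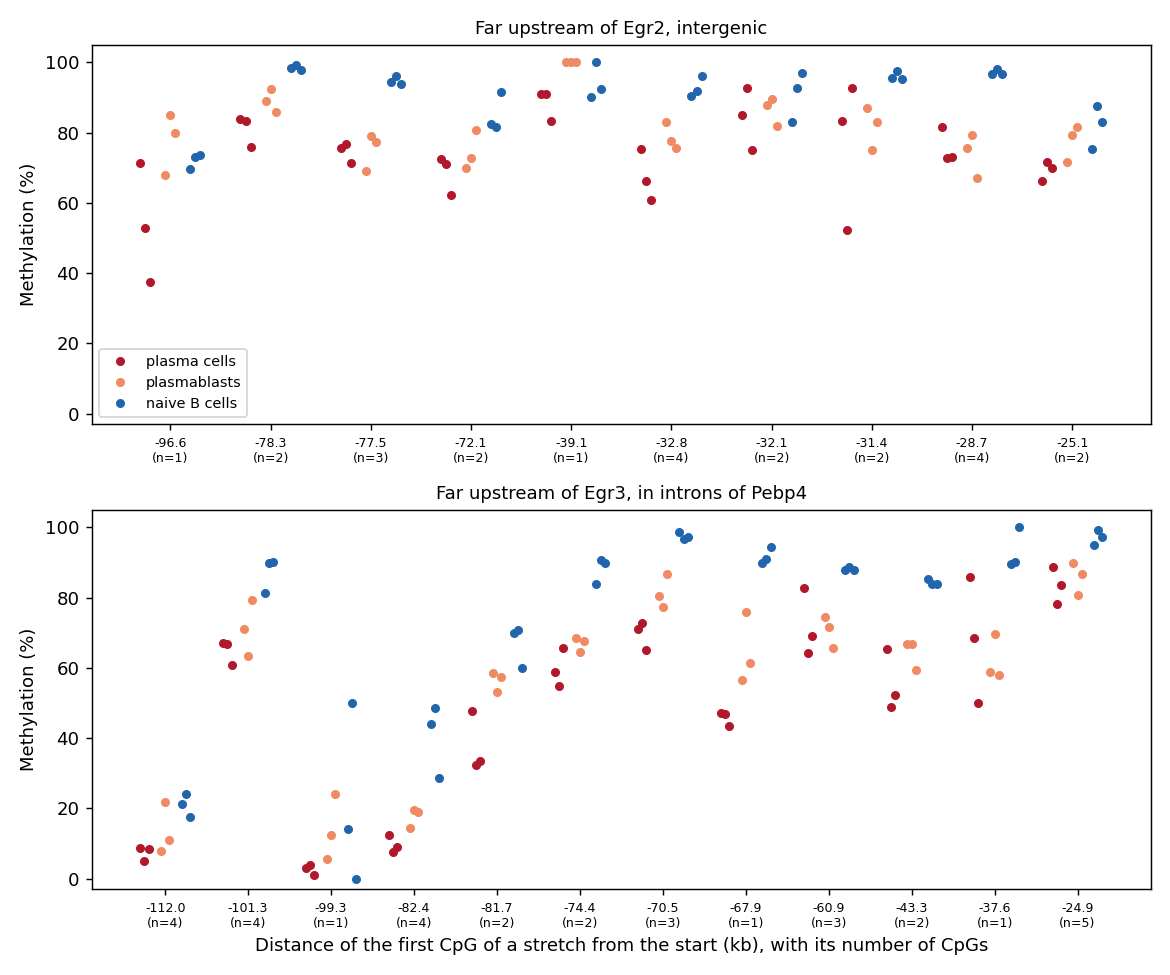
Methylation in percent, pooled per stretch of CpGs, in the 3 libraries of plasma cells, plasmablasts and naive B cells, for the intergenic stretches far upstream of Egr2 (top) and the stretches in Pebp4 introns far upstream of Egr3 (bottom), ordered by distance from the start in kb, with the number of CpGs in each. At 70409307, which stands alone 67.9 kb before the Egr3 start, plasma cells lie lowest, plasmablasts between and naive B cells highest.

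Close to Egr3, 3 intergenic CpGs 3505 to 3227 bp upstream gave 29.4%, 30.2% and 38.7% in plasma cells, 34.6%, 52.6% and 42.6% in plasmablasts, and 47.7%, 58.6% and 60.7% in naive B cells, and 1 of the 3 was called lower in plasma cells. Plasma cells lay below naive B cells and plasmablasts overlapped both. The 23 promoter CpGs averaged 2.04% ± 0.763 in plasma cells, 5.33% ± 2.50 in plasmablasts and 3.16% ± 1.33 in naive B cells. One of them, at 70475782 and 1469 bp upstream, was the only CpG of the 3 genes called between plasma cells and plasmablasts, and is named for that after its values were seen. It had 0% in plasma cells 1 to 3, 20.0%, 28.6% and 12.5% in plasmablasts, and 0%, 10.0% and 0% in naive B cells, with 10 to 52 reads per library. The call was lost with the library background subtracted, and without plasmablast 2, plasma cell 2 or plasma cell 3.

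At Egr2, whose factor acts in tolerance and in myelin-forming cells, all CpGs called lower were intergenic. Few others could be called lower. The 20 promoter CpGs had at most 8.53% in naive B cells, less than the fall that a call requires. The 4 exon CpGs had a median of 5.12% and a highest level of 41.9% there, and no intron CpG of Egr2 met the read minimum. The 27 intergenic CpGs averaged 67.0% ± 4.58 in plasma cells, 73.7% ± 0.836 in plasmablasts and 83.6% ± 2.42 in naive B cells. Of these, 8 were called lower in plasma cells and 5 in plasmablasts, where 31.8% and 15% of all intergenic CpGs were lower. The largest fall was at 66971909 of chromosome 10 (mm9), 28707 bp upstream, with 62.5%, 63.6% and 60.0% in plasma cells, 64.3%, 70.0% and 52.4% in plasmablasts, and 95.2%, 100% and 97.6% in naive B cells. Both LPS groups overlapped each other and lay more than 20 points below naive B cells. It is also the 1 Egr2 CpG above the minimum that the authors' deposited list gives for plasmablasts. At 66968020, 32596 bp upstream, the level was 59.6%, 63.2% and 50.0% in plasma cells, 72.3%, 67.3% and 62.7% in plasmablasts, and 90.6%, 86.0% and 95.7% in naive B cells. There too both LPS groups lay below naive B cells and overlapped each other. Their neighbours moved less evenly: at 66972168, 28448 bp upstream, the level was 92.0%, 57.1% and 60.0% in plasma cells, 75.0%, 78.9% and 68.8% in plasmablasts, and 95.8%, 96.3% and 97.1% in naive B cells, with plasma cell 1 close to naive B cells. At 66967799, 32817 bp upstream, it was 78.3%, 80% and 54.5% in plasma cells, 95%, 83.9% and 91.7% in plasmablasts, and 89.7%, 97.0% and 100% in naive B cells, and plasmablasts, which overlapped naive B cells, were not called.

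A pair of Egr2 CpGs 77451 and 77187 bp upstream was lower in both LPS groups. At 66923429 the level was 72.4%, 53.6% and 62.5% in plasma cells, 61.9%, 75.0% and 69.2% in plasmablasts, and 96.8%, 91.3% and 89.2% in naive B cells. At 66923165 it was 68.6%, 84.8% and 55.9% in plasma cells, 61.5%, 75.0% and 66.7% in plasmablasts, and 85.2%, 96.8% and 92.1% in naive B cells, with plasma cell 2 close to the lowest naive library. Other stretches changed less: 2 CpGs 32110 to 31885 bp upstream averaged 84.2% ± 8.83 in plasma cells, 86.4% ± 4.06 in plasmablasts and 90.8% ± 7.20 in naive B cells, differences within the spread of the libraries. Just outside the promoter, 4 CpGs 3096 to 2822 bp upstream averaged 24.6% ± 7.86, 33.4% ± 4.98 and 33.2% ± 4.55 in plasma cells, plasmablasts and naive B cells, with overlap among all groups. The single exon CpG deep in the gene above the minimum, 2866 bp past the start, had 39.5%, 30.8% and 50.0% in plasma cells, 55.0%, 40.0% and 44.2% in plasmablasts, and 39.5%, 31.8% and 53.6% in naive B cells, with no separation.

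Egr1 had the fewest measured CpGs and the fewest called. Of its 21 CpGs, 2 were lower in plasma cells and 1 in plasmablasts, where 22.6% and 10.5% of all CpGs were lower. Egr1 was thus measured at too few CpGs for the count to set it apart. It lies on chromosome 18 (mm9, 35020861 to 35024610, plus strand). Its 9 promoter CpGs averaged 0.965% ± 0.668 in plasma cells, 5.67% ± 4.58 in plasmablasts and 0.741% ± 0.627 in naive B cells, and its 4 exon CpGs within 436 bp of the start averaged 0.327% ± 0.566, 2.10% ± 2.27 and 2.38% ± 2.06 in plasma cells, plasmablasts and naive B cells. A CpG 5399 bp downstream of the start, at 35026261, was lower in both LPS groups and had 63.3%, 68.2% and 76.0% in plasma cells, 70.0%, 66.7% and 60.0% in plasmablasts, and 88.0%, 90.6% and 92.3% in naive B cells. All plasma cell and plasmablast libraries were below all naive libraries there. At 35037956, 17094 bp downstream, it was 43.9%, 62.1% and 42.9% in plasma cells, 63.2%, 64.5% and 70.4% in plasmablasts, and 63.2%, 87.8% and 83.9% in naive B cells, and plasmablasts overlapped naive B cells. The farthest pair, 27640 to 27669 bp downstream, was low in every group, at 25.9% ± 4.24 in plasma cells, 31.8% ± 16.5 in plasmablasts and 27.4% ± 2.77 in naive B cells, with all groups overlapping. Leaving out single libraries moved the number of Egr1 CpGs called lower in plasma cells between 0 and 3.

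Levels near 0 at the promoters moved with the libraries' background. Over 78678 CpGs of all genes with a mean under 5%, the level was 1.05% to 1.18% in plasma cells, 2.71%, 6.11% and 2.17% in plasmablasts, and 0.745%, 3.17% and 2.75% in naive B cells 1 to 3. The 52 promoter CpGs of the 3 genes had 1.93%, 1.72% and 1.33% in plasma cells, 4.51%, 8.51% and 3.31% in plasmablasts, and 1.72%, 3.97% and 2.21% in naive B cells, again highest in plasmablast 2. The part of the background in the promoter levels was not tested. With each library's background subtracted, 5 CpGs of the 3 genes were called higher in plasma cells and 5 in plasmablasts, as without. Within the libraries of low background, which are the 3 plasma cell libraries and naive B cells 1, 2 CpGs were called higher and 10 lower. There naive B cells 1 is the whole naive group and is assumed to vary like the other libraries. Total reads over CpGs ran from 16037172 to 29948088 per library.

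Summed over whole loci, Egr2 and Egr3 were called lower in plasma cells than in naive B cells, where 67.8% of all loci were, and Egr1 was not called. None of the 3 was called in plasmablasts, where 26.1% of all loci were lower. Leaving out single libraries kept the plasma cell calls of Egr2 and Egr3, whereas Egr1 was called without naive B cells 1 or plasma cell 1, and Egr3 was called lower in plasmablasts without naive B cells 1. Without plasma cell 1, Egr2 was also called lower in plasma cells than in plasmablasts. With reads pooled over its CpGs, Egr3 had 26.8% ± 5.22 in plasma cells, 36.2% ± 2.31 in plasmablasts and 44.2% ± 7.21 in naive B cells (SD, n = 3). Egr2 had 33.8% ± 6.21, 43.1% ± 2.51 and 48.2% ± 0.973, and Egr1 21.1% ± 4.57, 28.4% ± 5.78 and 35.2% ± 7.80, in plasma cells, plasmablasts and naive B cells. The plasma cell difference from naive B cells was -16.80 points at Egr3, -14.46 at Egr2 and -14.26 at Egr1, and -10.29, -9.44 and -5.61 points when each CpG counted equally. Over all 14220 loci with at least 5 tested CpGs the median difference was -15.7 points in plasma cells and -7.42 points in plasmablasts, where Egr3, Egr2 and Egr1 had -7.43, -5.00 and -6.79 points. With each CpG counted equally these plasmablast differences were -4.83 points at Egr3, -4.16 at Egr2 and -0.753 at Egr1.

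Locus levels most like those of Egr3 over the 9 libraries, by Euclidean distance in percentage points, were those of Prkcz (5.61), Gtpbp3 (5.75) and Zfp148 (5.95). Among the loci nearest to Egr2 were Rab24 (5.55) and Zfp827 (5.65), and nearest to Egr1 were Supt3 (6.64), Camk2n1 (6.74) and Ndufs1 (6.99). The measure uses the level as well as its change, and the loci share the 9 libraries.

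Genes around the early growth response factors were taken from 4 lists and tested at locus level in the fit over all 14220 loci, where 67.8% were called lower and 0% higher in plasma cells, and 26.1% lower and 0.00703% higher in plasmablasts, each against naive B cells at an adjusted p under 0.01 and at least 5 points. Of 75 list genes 69 were tested, of which 46 were lower in plasma cells, 8 were lower in plasmablasts and none was higher. Their median difference was -14.3 points in plasma cells and -5.05 points in plasmablasts, against -15.7 and -7.42 points over all loci. Between plasma cells and plasmablasts none was called by the model moderated with limma, where 0% of all loci were called. The unadjusted p of that model was under 0.05 in 47 of 69, and in 7314 of all 14220 loci. The plasma cell count was 26 without plasma cell 3, 29 without plasma cell 2 and 0 within the low-background libraries, where naive B cells 1 stands alone for its group. The plasmablast count was 2 to 19 with single libraries left out, and 30 genes were called between plasma cells and plasmablasts without plasma cell 1.

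Among EGR partners and relatives, 2 of 4 fell in plasma cells and none was called in plasmablasts, beside 67.8% and 26.1% of all loci. Apart from Egr4, list genes given with an adjusted p were picked among called loci. A value under 0.01 in plasma cells follows from that choice. The corepressor gene Nab1 had 23.7% ± 5.08 in plasma cells, 29.4% ± 1.12 in plasmablasts and 36.8% ± 3.95 in naive B cells, a plasma cell difference of -13.09 points (adjusted p = 0.00246, limma-moderated test). The fourth family member, Egr4, fell by 16.01 points to 17.8% ± 1.53 in plasma cells, against 34.0% ± 7.00 in naive B cells, and plasmablasts had 22.1% ± 5.42 (adjusted p = 0.00553 for plasma cells, limma-moderated test). With each CpG weighted equally the Egr4 difference was -8.48 points. All 3 of its lower CpGs lay 19788 to 30974 bp upstream, while its 9 exon CpGs averaged 3.70% ± 1.38, 7.39% ± 4.33 and 3.54% ± 1.05 in plasma cells, plasmablasts and naive B cells, with no counterpart of the Egr3 rise. Nab2 and Wt1, the gene of a related zinc finger factor, were not called, with 2.24% ± 0.426 and 7.85% ± 1.51 in plasma cells, 6.27% ± 2.85 and 12.5% ± 2.19 in plasmablasts, and 4.32% ± 2.48 and 10.1% ± 1.01 in naive B cells.

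Of 34 tested immediate early genes, 20 fell in plasma cells, where 67.8% of all loci did. In plasmablasts, where 26.1% of all loci fell, the only 1 was Csrnp1. It encodes a nuclear protein induced by AXIN1 and had 53.3% ± 4.65 in plasma cells, 62.4% ± 1.73 in plasmablasts and 76.0% ± 2.79 in naive B cells, differences of -22.38 points (adjusted p = 6.97e-05) and -13.39 points (adjusted p = 0.0028, both limma-moderated). Klf10, a zinc finger factor induced by TGF-beta, fell by 23.04 points in plasma cells, and differed by -13.05 points with CpGs weighted equally. Fos, a subunit of AP-1, fell by 16.62 points and the orphan nuclear receptor gene Nr4a2 fell by 16.10 points. With CpGs weighted equally their differences were -11.76 and -11.57 points. In plasmablasts Klf10, Fos and Nr4a2 differed from naive B cells by -11.06, -6.56 and -4.15 points and were not called.

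Of 19 tested genes that signal to EGR genes, 15 fell in plasma cells and 5 in plasmablasts. Blnk, the adaptor of the B cell receptor, had 20.9% ± 6.05 in plasma cells, 29.9% ± 3.91 in plasmablasts and 62.9% ± 2.89 in naive B cells, and was called in both (adjusted p = 2.53e-05 and 0.000513, limma-moderated). Nfatc1, a calcium-dependent transcription factor that acts with EGR proteins, fell by 28.29 points in plasma cells, and Syk, the kinase downstream of the receptor, fell by 25.43 points. Nfatc2 fell by 16.37 points in plasma cells and by 9.70 points in plasmablasts. With CpGs weighted equally the plasma cell differences were -26.75 points at Nfatc1, -18.76 at Syk and -12.66 at Nfatc2. Of 12 tested EGR targets in lymphocytes, 9 fell in plasma cells and 2 in plasmablasts, beside the same shares of all loci. Cd44, an adhesion receptor, had 20.1% ± 6.40 in plasma cells, 37.1% ± 1.44 in plasmablasts and 68.7% ± 3.10 in naive B cells over 6 CpGs, and was called in both. Dgkz, a diacylglycerol kinase that dampens ERK signalling, fell by 16.17 points in plasma cells. Socs3, an inhibitor of cytokine signalling, fell by 15.07 points and Nrn1 fell by 11.81 points there. Equal weights gave plasma cell differences of -12.89 points at Dgkz, -10.55 at Socs3 and -8.32 at Nrn1. No tested gene of the 4 lists had more than 1 CpG called higher: Nfatc2 had 1 in plasmablasts, Ndrg1, an EGR target, 1 in each group, and Dusp5, a phosphatase of ERK, 1 in plasma cells. Ndrg1 and Dusp5 are named for this after their values were seen.

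Methylation at loci of other cell types gives no direct check of purity here, since the files hold no expression values. The sort is therefore taken from the labels. Among marker loci tested, 4 of 5 of B cells, 3 of 5 of T cells, 2 of 3 of myeloid cells and 4 of 4 of plasma cells were lower in plasma cells than in naive B cells, where 67.8% of all loci were, and none was higher. A mixture of cells and a change within cells cannot be told apart from these levels.

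Just inside the read minimum, 12 CpGs of the 3 genes had 10 reads in their shallowest library, and their pooled levels ran from 0% to 88.9% in plasma cells, 1.96% to 100% in plasmablasts and 0% to 98.3% in naive B cells. Just outside it, 2 CpGs had 9 reads in the shallowest library, with 55.6% and 69.1% in plasma cells, 69.4% and 70.5% in plasmablasts, and 54.6% and 96.6% in naive B cells as the lower and higher value of each group.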

How the data were processed

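The authors deposited, for 911004 CpGs, counts of methylated and unmethylated reads per library and the methylation level as a fraction, which equalled methylated over all reads within rounding. Per the file headers, calls from both strands were summed, every CpG is annotated to the closest start on mm9, and the deposited lists of differential CpGs passed a false discovery rate of 0.01 and a change of 20 points. Per the submitters' processing notes, Bismark and Bowtie2 were used with mm9, in versions not given here.

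CpGs with at least 10 reads in all 9 libraries were fitted with a quasi-binomial logistic model (group only, all libraries), written in Python 3.11.15 with numpy 2.4.6 and scipy 1.17.1 and tested on simulated data. The dispersion was moderated with limma 3.58.1 in R 4.3.3 and came to 1.27 for every CpG, so a CpG's own spread does not enter its p. F tests were adjusted by Benjamini-Hochberg over all 356320 CpGs. Loci summed the reads of at least 5 CpGs. Classes were assigned in the order promoter, exon, intron, intergenic. The name of Pebp4 was matched by Entrez ID to a RefSeq table, and sequence came from RefSeq. RefSeq promoter windows were given for Egr2 but not used for Egr1 and Egr3.

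Members, lists and tests were chosen with earlier results of these data known. CpGs named are those called in any comparison or, above 6 in a gene, the 6 with the largest plasma cell difference plus all that rose; list genes named are the 4 per list with most called CpGs among called loci. A further locus among those with levels most like Egr2 is not reported here. Replicate libraries correlated at 0.956 to 0.986. Alternatives varied coverage, thresholds, dispersion, weighting, background, a replicate block and single libraries.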

Additional observations from a re-analysis of the deposited data

Results flagged for a closer look

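The Egr3 promoter CpG at 70475782 stood out because plasma cells and plasmablasts differed there by the test over all CpGs: plasma cells were -21.3 points from plasmablasts, at 0% in all 3 plasma cell libraries and 21.3% over the pooled plasmablast reads, while naive B cells had 2.08%. It was called in neither comparison with naive B cells. The value was highest in plasmablast 2, the library with the highest background, and the call was lost with the library background subtracted.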

How the results depend on the processing

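No difference changed direction where it was called. Of the 135 CpGs, those lower in plasma cells (28) numbered 7 at a coverage minimum of 20 and 10 within the low-background libraries, and those higher (5) numbered 0 and 2. Those lower in plasmablasts (17) numbered 4 at a minimum of 20, and those higher (5) numbered 0. No Egr3 exon CpG had 20 reads in all libraries. With each CpG's own dispersion, 0 CpGs were called in any comparison, of these or of all 356320. The 1 CpG lower in plasma cells than plasmablasts became 0 at a minimum of 20 and with the background subtracted, 2 at a minimum difference of 10 points and 3 at an adjusted p under 0.05. With single libraries left out the counts ran from 21 to 35 lower and 3 to 5 higher in plasma cells, 9 to 17 lower and 3 to 5 higher in plasmablasts, and 0 to 2 between them.

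Correlations of deviations between libraries of the same replicate number ran from -0.0287 to 0.0302. Those of other pairs ran from -0.0368 to 0.0419, and 4 of 18 were best with their own number. Sampling of reads can hide a shared animal in such values, so they cannot decide whether libraries of the same number came from the same animals. The labels do not state it. With a replicate block, 25 CpGs were lower and 5 higher in plasma cells, 14 and 5 in plasmablasts, and 1 lower between them; list genes lower in plasmablasts went to 4.

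List genes lower in plasmablasts (8) were 29 with CpGs weighted equally in limma, 25 within the high-background libraries and 2 to 19 with single libraries left out. Those lower in plasma cells (46) were 30 at a minimum of 20, 0 within the low-background libraries and 26 to 53 with single libraries left out. Between plasma cells and plasmablasts (0) they were 3 with equal weights and 0 to 30. The plasma cell difference of Egr1 was -5.61 points with equal weights and -5.70 within libraries of low background, that of Egr2 -8.64 at a minimum of 20 and -9.44 with equal weights, and that of Egr3 -10.29 with equal weights and -9.63 within libraries of low background. The plasmablast difference of Egr2 was -3.03 at a minimum of 5, and that of Egr3 was called lower within libraries of high background, at -12.14. The causes were not tested. The 12 to 18 reads per CpG of naive B cells 2 and 3 limit the precision at the Egr3 exon. Locus calls in plasma cells ended for Egr2 at a minimum of 20, and for Egr2 and Egr3 within libraries of low background; Egr1 was called at a minimum of 5 and with the background subtracted.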
